A study of Mus musculus with 4 samples.

Results

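Clustered zinc finger genes of the mouse genome were followed in embryonic stem cells (mESC) in which the gene for O-GlcNAc transferase, Ogt, was targeted for deletion. The members are the RefSeq protein-coding genes whose symbol is Zfp followed by a number and that have at least 3 other such genes starting within 500 kb, with the large cluster at the distal end of chromosome 4 left out. These are 160 of 21627 protein-coding genes of the autosomes and X, in 20 clusters on 8 chromosomes. Of 2935 windows of 1 kb tiled over them, 2560 held at least 3 CpGs read in every library, out of 885507 such windows in all genes. DNA methylation was measured by whole-genome bisulfite sequencing in 4 libraries, 2 per group. All cells carried floxed Ogt alleles (Ogt fl/fl) and grew on mitomycin C-treated mouse embryonic fibroblasts. The iKO (inducible knockout) cells were kept with 4-hydroxytamoxifen (4-OHT) for 6 days and the control cells were kept without it for 6 days. Fibroblasts were removed from both groups by sorting, and YFP+ cells were selected only in the treated group, so drug exposure, the YFP gate and the loss of Ogt cannot be told apart. How the recombinase is expressed, and whether replicates were separate cultures, is not stated in the labels. The spread between libraries on which p-values rest may thus be technical. In the main tests of gene bodies, last kb and windows it is a value shared over features, not the feature's own. Methylation levels do not show whether Ogt was lost, and neither this nor the cell type was checked on expression here.

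Clustered Zfp genes mostly encode Krüppel-type zinc finger proteins, many of them with a KRAB domain that recruits the corepressor TRIM28 and, through it, the histone methyltransferase SETDB1 and DNA methylation to transposable elements. The genes arose by local duplication, and related copies lie side by side. Their 3′ exons, which encode the finger arrays, are known to carry methylation and repressive histone marks while their start sites are usually CpG-rich and unmethylated. OGT adds N-acetylglucosamine to proteins, among them the TET enzymes, which oxidise 5-methylcytosine. Bisulfite conversion does not separate 5-methylcytosine from 5-hydroxymethylcytosine, so a level here counts both.

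Start-site sequence was available for 146 members. Promoters, taken as 250 bases before to 50 bases after the RefSeq start on GRCm38.p6, held a median of 11.5 CpGs (range 1 to 51) against 14 over the 17273 genes in the table. At least 10 CpGs were present in 63.7% of member promoters and in 57.9% of all. The 4 promoters printed here, with 1 to 21 CpGs, are shown because the results below return to them. Each is written 5′ to 3′ on the gene's strand with every CpG in capitals. Zfp961 (chr8:71950816-71951115, plus strand) has a CpG-rich start and the largest body decrease, Zfp936 (chr7:43177340-43177639, plus strand) lies deep inside its gene model at a window that was called lower, and Zfp708 (chr13:67097927-67098226, minus strand) and Zfp235 (chr7:24132122-24132421, plus strand) were methylated at their starts in the control.
Zfp961 promoter: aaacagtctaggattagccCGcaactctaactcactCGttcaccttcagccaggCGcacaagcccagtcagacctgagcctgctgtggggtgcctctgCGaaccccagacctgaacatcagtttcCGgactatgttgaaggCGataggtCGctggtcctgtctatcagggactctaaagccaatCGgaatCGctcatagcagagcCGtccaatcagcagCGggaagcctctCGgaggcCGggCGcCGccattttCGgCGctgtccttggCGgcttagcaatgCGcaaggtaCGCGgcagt
Zfp936 promoter: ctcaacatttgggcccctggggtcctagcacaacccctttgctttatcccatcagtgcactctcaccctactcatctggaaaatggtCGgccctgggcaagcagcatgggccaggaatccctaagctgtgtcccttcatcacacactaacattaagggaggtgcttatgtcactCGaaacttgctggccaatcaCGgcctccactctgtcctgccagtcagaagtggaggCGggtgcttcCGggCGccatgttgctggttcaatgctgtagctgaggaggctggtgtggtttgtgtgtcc
Zfp708 promoter: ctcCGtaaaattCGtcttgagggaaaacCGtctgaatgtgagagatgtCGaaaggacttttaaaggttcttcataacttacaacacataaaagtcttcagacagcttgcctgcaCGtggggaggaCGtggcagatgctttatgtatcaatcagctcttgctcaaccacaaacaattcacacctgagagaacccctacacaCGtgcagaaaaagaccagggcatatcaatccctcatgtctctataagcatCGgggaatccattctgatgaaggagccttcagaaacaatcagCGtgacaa
Zfp235 promoter: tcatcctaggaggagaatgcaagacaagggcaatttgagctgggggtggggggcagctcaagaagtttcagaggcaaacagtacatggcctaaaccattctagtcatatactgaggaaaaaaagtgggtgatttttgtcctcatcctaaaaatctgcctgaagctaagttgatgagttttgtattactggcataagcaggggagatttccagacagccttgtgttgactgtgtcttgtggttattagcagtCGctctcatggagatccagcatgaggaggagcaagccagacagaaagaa
In Zfp961, which has 21 CpGs in this stretch, the 9 CpGs read in every library carried 0 methylated reads in all 4 libraries, and the 9 reads of the shallowest library allow a level of up to 33.3%. Levels over the Zfp936 promoter, with all 6 of its CpGs read, were 0% and 0% in the iKO libraries against 3.51% and 0% in the control libraries. The Zfp708 promoter, with 9 CpGs, stood at 68.0% and 47.5% in the iKO libraries against 83.3% and 69.0% in the control libraries. The single CpG of the Zfp235 promoter was methylated in all of its 2 to 5 reads per library. Few or no methylated reads were thus seen at the starts of Zfp961 and Zfp936 in any library, and those of Zfp708 and Zfp235 were methylated in all.

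The 4 libraries held 64273609 to 79929994 reads over CpGs, a mean depth of 3.36 to 4.05 reads per CpG listed on the autosomes and X. Over the tested CpGs of the members the depth was 4.45 and 4.01 reads in the iKO libraries against 3.89 and 3.60 in the control libraries, close to the 4.16, 3.75, 3.64 and 3.44 over all gene windows. Related copies can share reads, and how reads with several matches were placed is not given in the sources used here. A level is the percent of C or T reads that stayed C, pooled over the CpGs of a feature, and a difference is iKO minus control in percentage points. Counting limits for levels of 0 are 3 reads of the total, and they cover counting error only, since reads carry no molecular identifiers.

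Methylation of the clustered zinc finger genes was lower in both iKO libraries than in both control libraries. Member windows averaged 61.1% and 58.9% in the iKO libraries against 67.3% and 71.4% in the control libraries. Group means were 60.02% ± 1.55 (SD, n = 2) and 69.4% ± 2.88 (SD, n = 2), a difference of -9.36 points. The two-sided exact permutation p was 0.3333, the smallest that 6 arrangements of 4 libraries can give. Windows at 80% or more made up 20.1% and 16.2% of member windows in the iKO libraries against 35.7% and 49.2% in the control libraries. In other genes these shares were 27.8% and 23.1% against 42.9% and 56.2%, so the change was about as large there (-24.1 points, and -24.3 in the members). Windows at 20% or less made up 10.1% ± 0.414 (SD, n = 2) of member windows in the iKO group and 8.18% ± 0.470 (SD, n = 2) in the control group, and 4.14% and 3.21% of windows of other genes.

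Windows of the other protein-coding genes differed by -8.20 points (66.8% against 75.0%). Member windows minus other windows was -6.82 and -6.77 points in the iKO libraries, and -5.81 and -5.47 points in the control libraries. The change of this gap between the groups was -1.16 points, against a pooled SD of 0.168 points, with libraries that did not overlap (exact permutation p = 0.3333). Against the 191 Zfp genes with fewer than 3 neighbours, whose windows differed by -9.04 points, the gap changed by -0.314 points with a pooled SD of 0.488. Against the chromosome 4 cluster, whose 736 windows differed by -9.49 points, it changed by 0.133 points with a pooled SD of 1.73. Neither of these changes exceeded the spread between libraries. Among windows with similar numbers of CpGs, the gap between members and other genes changed between the groups by -1.55 points at 3 to 4 CpGs (from -1.32 in the control to -2.87 in the iKO group), by -1.30 at 5 to 9 and by -1.80 at 10 to 19. At 20 or more CpGs the change had the other sign, with member windows at 18.6% against 23.5% (-4.89 points) and other windows at 33.5% against 39.4% (-5.90 points).

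Gene bodies were tested one by one, leaving out the first and last kb of genes longer than 3 kb. A body was called when a quasi-binomial model of the reads gave a Benjamini-Hochberg adjusted p under 0.05 over all genes and a difference of at least 10 points. Of the 160 member bodies, 66 (41.2%) were called lower and 0 higher, against 23.6% of all 21001 bodies called lower and 0.0286% called higher. The median difference was -9.55 points over the members and -8.33 over all bodies. Of the members 156 (97.5%) lay below 0, against 93.8% of all bodies, and in 139 (86.9%) both iKO libraries lay below both control libraries, which held for 78% of all bodies. All 66 called bodies were among these 139, with differences of -10.1 to -24.0 points, and 18 of the 20 clusters held at least 1 of them. The member count was 13 without iKO replicate 1, 0 without iKO replicate 2, 90 without control replicate 1 and 28 without control replicate 2. The shares of all bodies called lower in these fits were 3.62%, 0.0190%, 40.9% and 10.4%. With replicate number as a block it was 9, against 1.41% of all bodies, and with 10 points counted from the median of all bodies it was 6, against 2.23%. limma on logit levels called 0 members and 0 of all bodies, with 84 members and 41.6% of all bodies at an unadjusted p under 0.05. No member body named as called in the text kept its call without iKO replicate 2.

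**Figure D1:**
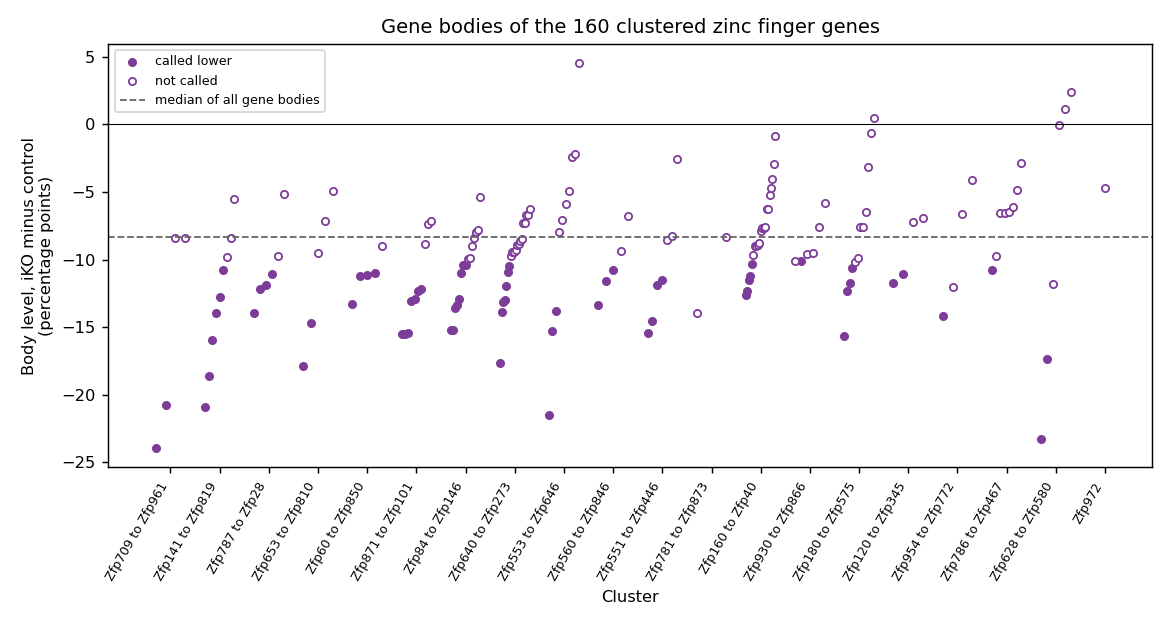
Difference in gene body methylation (iKO minus control, percentage points, vertical axis) for each of the 160 clustered zinc finger genes, grouped by cluster from the largest mean loss to the smallest. Filled points are the 66 bodies called lower, open points are not called, the dashed line is the median of all 21001 bodies (-8.33), and 4 points lie above 0.

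The largest decrease was that of Zfp961, reported to bind retroviral primer binding sites. Its body stood at 36.6% and 31.2% in the iKO libraries against 57.2% and 58.6% in the control libraries (-24.0 points, adjusted p = 2.29e-05, 99 CpGs). In Zfp617, from the same cluster on chromosome 8, the levels were 63.9% and 63.0% against 85.6% and 82.8% (-20.7 points, adjusted p = 0.000829). The 2 other genes there, Zfp709 and Zfp882, are the 2 open points of that cluster, and Zfp882 differed by -8.39 points (adjusted p = 0.0883). Zfp977 and Zfp658, both from the Zfp141 to Zfp819 cluster on chromosome 7, fell by 20.9 and 18.6 points. Zfp977 stood at 53.4% and 57.0% against 73.4% and 78.7%, and Zfp658 at 54.9% and 56.5% against 73.8% and 74.8%. Zfp141 of that cluster fell by 15.97 points, from 68.0% and 73.2% to 56.3% and 52.9%. In these 5 called bodies every iKO library lay below every control library. All 5 calls were lost without iKO replicate 2 (adjusted p = 0.0774 to 0.129), and that of Zfp977 also without iKO replicate 1 (adjusted p = 0.0539).

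Of the other large decreases, Zfp524 (50.0% and 56.2% against 78.7% and 74.1%, -23.3 points, adjusted p = 0.0261) rested on 11 CpGs with 38 to 54 reads per library, and it was called in 0 of the 4 fits that left out a library, where its difference was -26.4 to -20.1 points. Zfp629 stood at 65.9% and 39.5% against 67.5% and 80.8% (-21.5 points, adjusted p = 2.72e-05). Its iKO replicate 1 lay close to control replicate 1, and the adjusted p was 0.298 without iKO replicate 2, with a difference of -8.28 points there and of -34.7 points without iKO replicate 1. Zfp493 of chromosome 13 stood at 73.1% and 62.9% against 84.2% and 87.1% (-17.6 points, adjusted p = 0.00180), and Zfp628 at 37.6% and 31.8% against 51.8% and 52.3% (-17.3 points, adjusted p = 0.00713). Zfp493 was called in 3 of the 4 fits that left out a library and Zfp628 in 1. At the other end, 4 bodies lay above 0 and none was called: Zfp689 at 4.52 points, Zfp579 at 2.39, Zfp580 at 1.12 and Zfp235 at 0.453. Zfp579 was low in all libraries, at 14.1% and 11.1% against 9.68% and 10.7%. The iKO replicates of Zfp689 stood far apart, at 44.5% and 28.3%, around control levels of 35.2% and 28.5%.

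First kb were mostly low in methylation and last kb mostly high. The strand was known for 146 members. For the other 14 the end of lower coordinate was taken as the first. Of 157 first kb measured, 121 stood at 20% or less in the control and 20 at 50% or more. Of 142 last kb, 118 stood at 50% or more and 13 at 20% or less. Over the 140 members with both ends, the first kb averaged 13.2% and 12.8% in the iKO libraries against 16.5% and 16.5% in the control libraries (-3.44 points). The last kb averaged 62.4% and 59.9% against 66.4% and 71.8% (-7.98 points). Last minus first kb was 48.1 ± 1.48 points in the iKO group and 52.7 ± 3.799 in the control group (SD, n = 2), a narrowing of 4.55 points with a pooled SD of 2.88, and the iKO libraries lay below the control libraries (exact permutation p = 0.3333). Leaving out a library gave -7.23 points (without control replicate 1) to -1.86 points (without control replicate 2). Among genes of known strand, last minus first kb differed between the groups by -4.90 points both in 130 members and in 14768 other genes, whose first kb stood at 25.03% against 28.8% and last kb at 62.7% against 71.4%.

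No member first kb was called by the quasi-binomial model, against 0.045% of 20014 first kb called lower and 0.005% called higher. At an unadjusted p under 0.05 the quasi-binomial model gave 17 of 157 (10.8%), against 9.30% of all first kb. edgeR and limma each called 0. In both, 17 members (10.8%) had an unadjusted p under 0.05, against 7.34% and 7.73% of all first kb. The median difference was -1.08 points over the members and -1.28 over all first kb. No member last kb was called higher, against 0.00513% of all. In the lower direction 1 of 142 member last kb (0.704%) was called, against 0.601% of 19475, and the medians were -8.03 and -7.63 points. That one was Zfp566 (chr7:30077337-30078336, 15 CpGs), at 59.6% and 37.3% in the iKO libraries against 86.4% and 83.0% in the control libraries (-36.3 points, adjusted p = 0.0321). It was called in 1 of the 4 fits that left out a library, with adjusted p of 0.347 without iKO replicate 2, 0.186 without control replicate 1 and 0.261 without control replicate 2. The largest mean last-kb difference among clusters with at least 4 genes measured there was in the Zfp709 to Zfp961 cluster, at 70.2% ± 7.19 against 93.2% ± 0.786 (SD, n = 2).

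**Figure D2:**
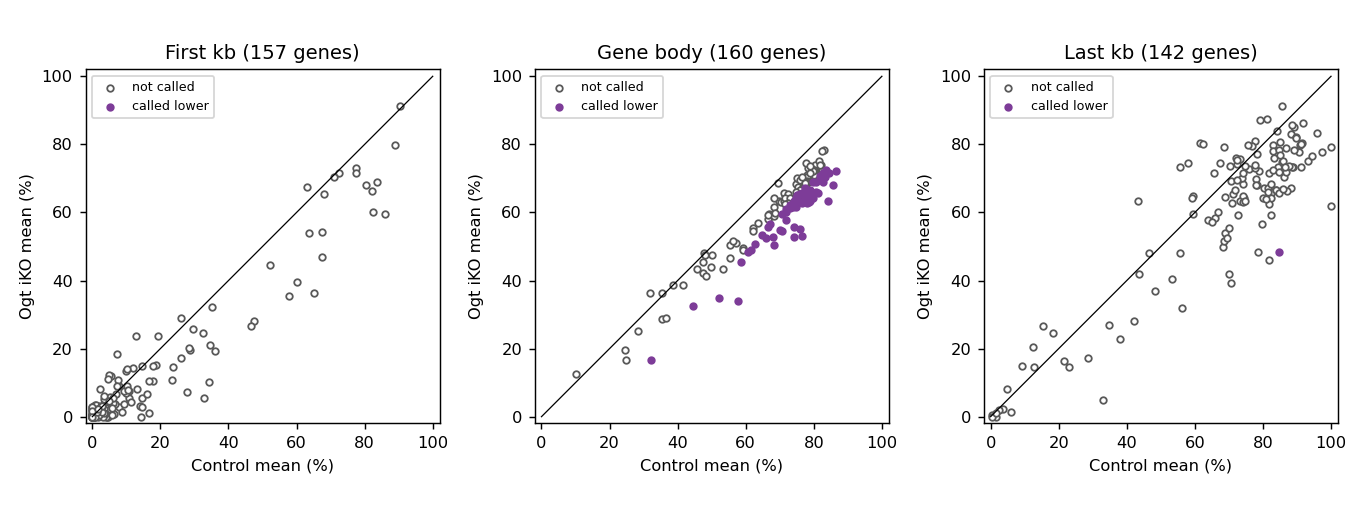
Mean iKO level against mean control level (percent) in the first kb, body and last kb of each clustered zinc finger gene with enough CpGs, with the diagonal of equal levels. First kb gather near 0% in both groups, all but 4 bodies lie below the diagonal with the 66 called ones filled, and last kb scatter widely with 1 called.

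Most of the methylated first kb with a known strand belonged to gene models that begin upstream of the start in the promoter table. Of the 15 such first kb at 50% or more, 12 had their listed start over 1 kb inside the gene, at 63424 bases in Zfp936, 21884 in Zfp459, 14741 in Zfp109 and 10394 in Zfp595. Zfp235, Zfp708 and Zfp773 had the listed start at the outer end. The kb from the listed start averaged 8.94% and 8.77% in the iKO libraries against 11.5% and 12.4% in the control libraries over the members with a listed start, all but 1 of which were measured. For the 23 members whose listed start lay over 1 kb inside, that kb averaged 14.3% against 17.7%. The outer first kb of the same genes, measured in 22, averaged 36.8% against 44.1%. Over all members measured from the listed start the quasi-binomial model called none, and 11 (7.59%) had an unadjusted p under 0.05, against 8.10% of all genes with a listed start.

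Profiles along the gene cover only genes of known strand with at least 10 tiled windows, members and other genes alike. With that limit 126 member windows were measured in the first kb. Member levels climbed steeply over the first 20% of the gene length and more slowly to its middle. Control means were 34.4% in step 1 of 10, 67.1% in step 2 and 76.4% in step 5. In the first 10% the members averaged 29.4% and 27.8% in the iKO libraries against 33.7% and 35.2% in the control libraries, a difference of -5.82 points. In each later step of 10% the difference was -8.80 to -10.51 points, and the levels in the last 10% were 66.0% against 76.0%. Other genes started higher and differed by -7.65 points in the first 10%. On a kb scale, the members rose from 15.0% in the control in the first kb to 56.1% in the second and 66.5% in the third. The iKO levels there were 11.8%, 46.9% and 55.3%. In kb 3 the members thus differed by -11.2 points, more than in any other of the first 8 kb. Other genes differed by -8.99 points in kb 3. In kb 1 members and other genes differed alike, by -3.22 and -3.27 points, unlike in the first 10%. In kb 6 and 7 other genes differed more, by -9.30 and -9.16 points against -8.35 and -7.48 in the members.

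**Figure D3:**
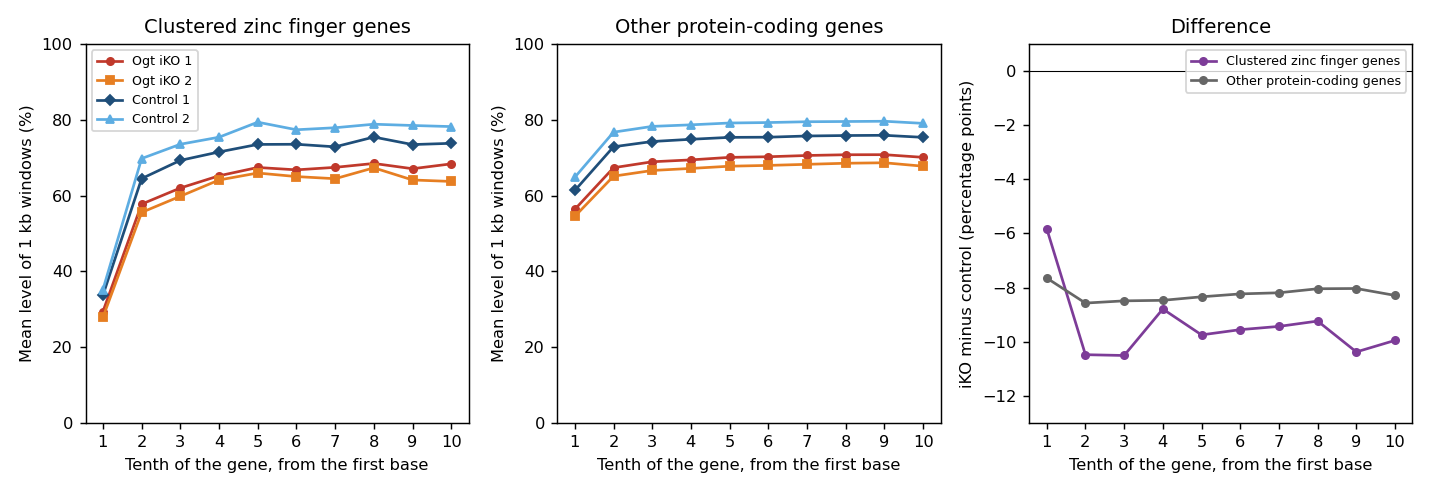
Mean level of 1 kb windows (percent) in each 10% of the gene length from its first base, by library, for the clustered zinc finger genes (left) and the other protein-coding genes (middle), and the difference iKO minus control in percentage points (right). Only genes of known strand with at least 10 tiled windows are included. Both iKO lines lie below both control lines at every step, and the members' difference is smallest in the first 10%, at -5.82 points.

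Of 2560 member windows, 2075 (81.1%) lay below 0, against 78.7% of all windows. In the test 15 (0.586%) were called lower and 0 higher, against 0.218% of 885507 windows called lower and 0.00102% called higher. The medians were -8.81 and -7.98 points. The 15 windows lay in 13 genes and 9 clusters, held 8 to 41 CpGs, and in 14 of them every iKO library lay below every control library. The count was 5 without iKO replicate 1, 0 without iKO replicate 2, 1 without control replicate 1 and 0 without control replicate 2, and the shares of all windows were 0.0363%, 0.00260%, 0.0281% and 0.00486%. At an unadjusted p under 0.05 the model gave 440 member windows (17.2%), against 13.5% of all windows, and edgeR and limma called 0, with 394 and 312 at that level, against 11.5% and 10.01% of all windows.

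The largest window decrease was the second kb of Zfp260 (chr7:30095782-30096781, 12 CpGs), a gene studied in the heart. It stood at 35.5% and 18.6% in the iKO libraries against 63.0% and 72.9% in the control libraries (-40.9 points, adjusted p = 0.0159). Next came kb 4 of Zfp446 (chr7:12979196-12980195, no strand given), at 25.5% and 29.4% against 71.9% and 61.1% (-39.0 points, adjusted p = 0.0454). Zfp809, which silences retroviruses through their primer binding site, had 2 such windows. Its kb 4 (chr9:22228667-22229666, 19 CpGs) stood at 23.1% and 21.2% against 63.8% and 50.9%, and its kb 14 (chr9:22238667-22239666, 12 CpGs) at 63.8% and 52.3% against 91.1% and 96.1%. They fell by 35.2 and 35.5 points. The first kb of the gene stood at 1.10% or less in every library, kb 4 was part methylated and kb 14 highly methylated in the control.

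The last full kb of Zfp617 (chr8:71932825-71933824) stood at 61.5% and 59.1% against 91.3% and 100%. Windows of Zfp811, Zfp128 and Zfp646 fell by 34.5, 33.9 and 32.9 points, and a window of Zfp937 by 31.3. The fifth kb of Zfp629 (chr7:127610786-127611785, 33 CpGs) stood at 68.3% and 17.3% against 67.0% and 89.8% (-35.6 points, adjusted p = 0.000137). This window is the one whose libraries overlapped. Its difference was -10.1 points without iKO replicate 2 and -61.1 points without iKO replicate 1. edgeR and limma called none of the 15 windows, those named here included. The remaining 5 called windows lay in Zfp628, Zfp763, Zfp84, Zfp629 and Zfp936 and were named after their values were seen.

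The called window of Zfp936 (chr7:43177166-43178165, 21 CpGs) spans the listed start whose sequence is printed above. It stood at 0% and 0% in the iKO libraries, with at least 98 reads in every library allowing up to 3.06%, and at 10.9% and 15.9% in the control libraries (-13.4 points, adjusted p = 0.0288). The kb from the listed start, a region that overlaps this window, stood at 0% and 0% against 18.97% and 19.4%, with an adjusted p of 0.150. The printed 300 bases themselves were at or near 0% in both groups, so the methylated control reads of this window lay mostly outside them. The window at the first base of Zfp629 was the other called one below 20% in the control, at 0% and 2.01% against 19.5% and 13.6% (adjusted p = 0.0468 among windows). The same reads, tested among first kb, gave an adjusted p of 0.137 and no call. The kb from the listed start of Zfp629 stood at 16.05% and 0.610% against 23.5% and 18.2% (adjusted p = 0.458).

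**Figure D4:**
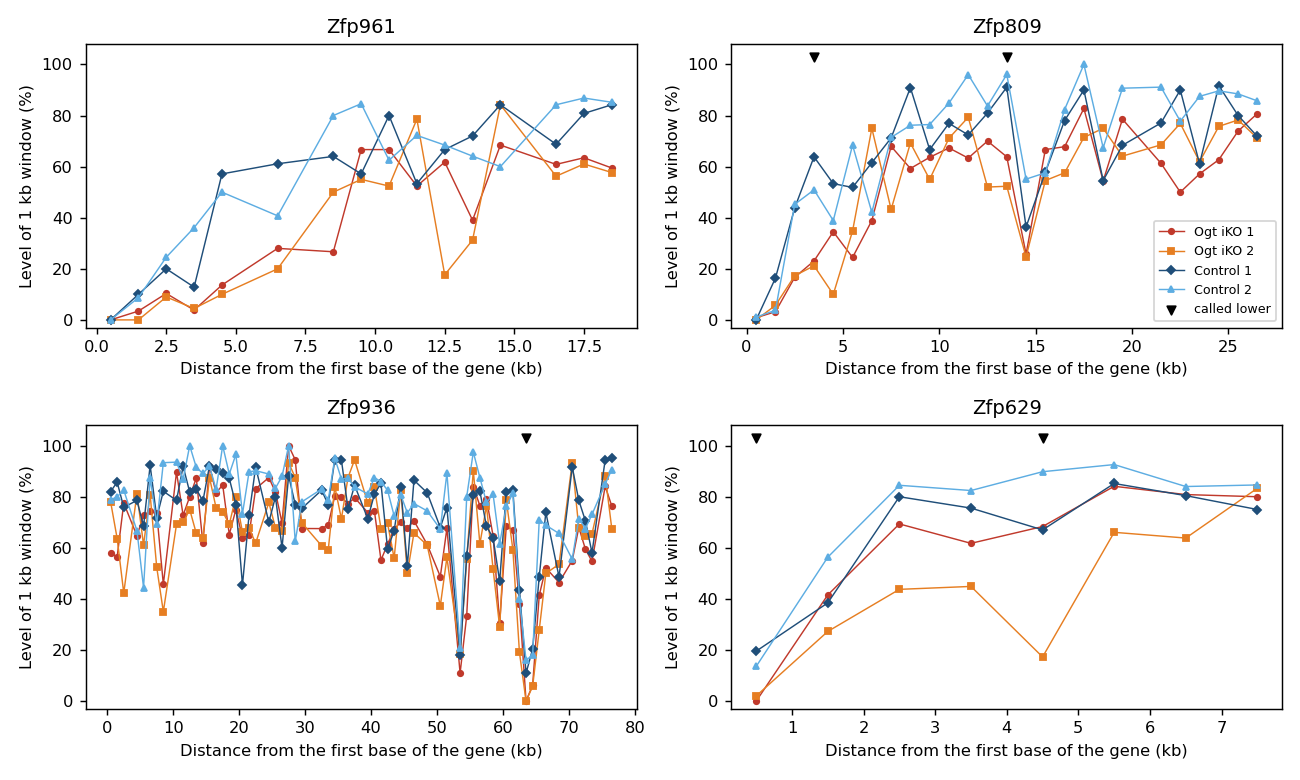
Level of each 1 kb window (percent) by distance from the first base of Zfp961, Zfp809, Zfp936 and Zfp629 in the 4 libraries, with black triangles over windows called lower. Zfp961 and Zfp809 climb from 0% or near it with the control libraries ahead over the first kilobases, Zfp936 dips to 0% to 15.9% near its listed start, and iKO replicate 2 alone is low in the fifth kb of Zfp629.

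Every cluster differed in the same direction. All 20 had a mean window level below the control mean, and in 18 the iKO libraries lay below both control libraries (exact permutation p = 0.3333, the smallest possible, and 0.370 after adjustment over the 20). The exceptions were Zfp954 to Zfp772 on chromosome 7 and Zfp781 to Zfp873 on chromosome 10 (adjusted exact permutation p = 0.667). Differences ranged from -13.6 to -5.34 points, and clusters are not replicates of the treatment, since all come from the same 4 libraries.

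The largest loss was in the Zfp709 to Zfp961 cluster (chr8:71882068-71970333, 4 genes), at 55.8% and 50.3% in the iKO libraries against 65.5% and 67.7% in the control libraries. Next was the Zfp141 to Zfp819 cluster (chr7:42473386-43618279, 9 genes), at 59.9% and 58.7% against 69.5% and 73.4% (-12.2 points). Of its 9 bodies 6 were called lower, against 23.6% of all bodies. The Zfp787 to Zfp28 cluster (chr7:6131489-6396637) differed by -10.9 points with 4 of 6 bodies called, and Zfp28 fell by 13.9 points. In the Zfp653 to Zfp810 cluster of chromosome 9 (-10.53 points) the members ranged from Zfp809 at -17.9 points to Zfp653 at -4.93. The Zfp60 to Zfp850 cluster of chromosome 7 (-10.4 points) had 4 of 5 bodies called, with Zfp626 at -13.3. The Zfp871 to Zfp101 cluster of chromosome 17 (-10.1 points) had 7 of 10, with Zfp763 at -15.5 and Zfp811 at -15.5 points. In the Zfp84 to Zfp146 cluster of chromosome 7 (-9.88 points) 8 of 15 bodies were called, with Zfp568 and Zfp260 at -15.2 points each.

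Another 13 clusters differed by less. The largest 2 by gene number were Zfp160 to Zfp40 on chromosome 17 (chr17:21008941-23193284, 21 genes, -8.43 points) and Zfp640 to Zfp273 on chromosome 13 (chr13:66670274-67827000, 20 genes, -9.78 points). In the former 5 of 21 bodies were called lower, against 23.6% of all bodies. Its members ranged from Zfp229 at -12.6 points to Zfp947 at -0.835. In the latter 7 of 20 were called, with Zfp493 first and Zfp429 at -6.27 points. The Zfp560 to Zfp846 cluster of chromosome 9 differed by -9.02 points, with Zfp266 at -13.3. The Zfp551 to Zfp446 cluster differed by -8.91, with Zfp329 at -15.4. The Zfp180 to Zfp575 cluster differed by -8.14, with Zfp108 at -15.6 points and Zfp235 at 0.453. The smallest losses were those of the Zfp972 cluster on chromosome 2 (1 gene, -5.34 points), Zfp628 to Zfp580 (-5.66 points) and Zfp786 to Zfp467 on chromosome 6 (-6.84 points). The last had 1 of 8 bodies called lower, against the same 23.6% of all bodies, and none above 0. Zfp628 to Zfp580 and Zfp553 to Zfp646 had the lowest control levels, 47.2% and 55.2%, and the most listed CpGs, 26.8 and 22.7 per kb.

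**Figure D5:**
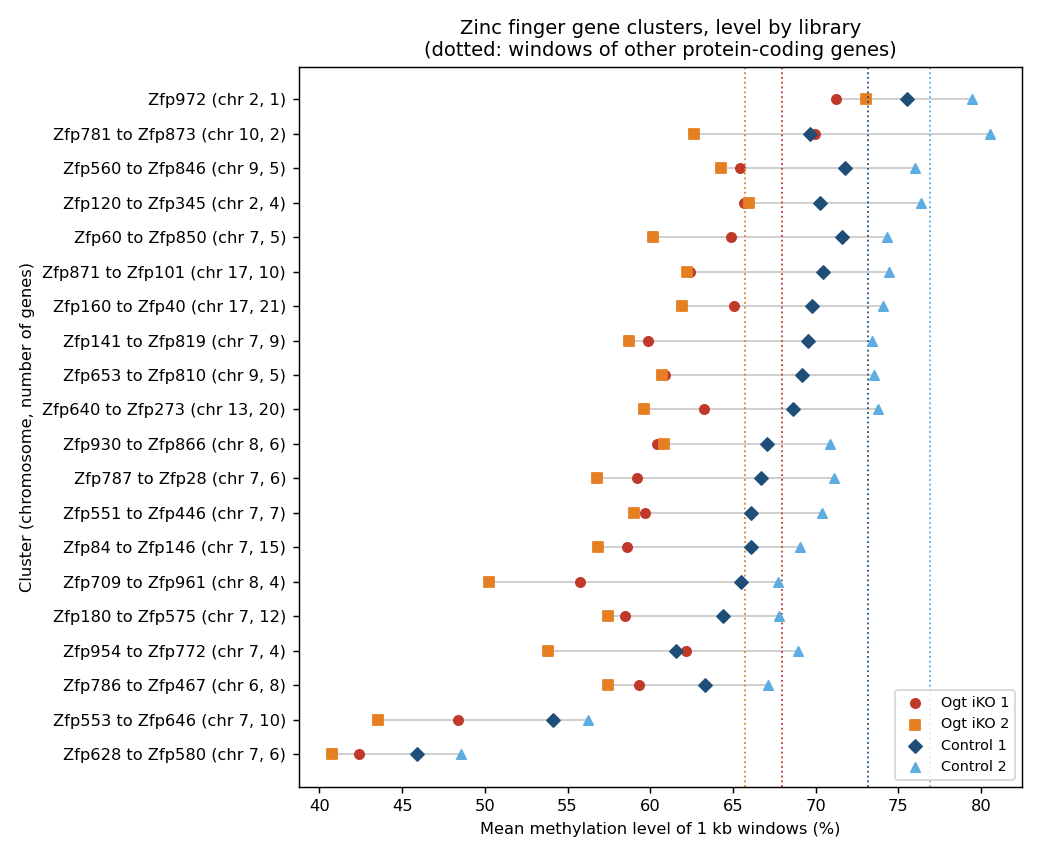
Mean methylation level of 1 kb windows (percent) in each of the 20 clusters by library, ordered by control mean, with chromosome and gene number beside the name. Dotted lines mark the windows of other protein-coding genes in each library, and in 18 of 20 clusters both iKO libraries lie left of both control libraries.

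The genes with a described function followed the same range. Zfp568, which represses a placental transcript of Igf2, stood at 56.7% and 52.8% in the iKO libraries against 66.5% and 73.4% in the control libraries (-15.2 points, adjusted p = 0.000106, 486 CpGs). It has no strand given, so its first kb is the end of lower coordinate and may not be its start. That kb read 0% in all 4 libraries, and the 52 reads of the shallowest library allow up to 5.77%. Zfp809 stood at 51.9% and 48.7% against 66.0% and 70.4% (adjusted p = 4.51e-05), with its first kb at 1.10% or less in every library. Zfp459 and Zfp457 of the chromosome 13 cluster that holds regulators of sex-limited liver genes fell (differences of -11.96 and -10.47 points). Zfp458 of that cluster differed by -9.44 points, with an adjusted p of 0.00925 but under 10 points. Zfp30, linked to a neutrophil chemokine in the airway, differed by -9.95 points (adjusted p = 0.0275), and Zfp708 by -7.27 points (adjusted p = 0.0655). The first kb of Zfp708, methylated as its promoter is, stood at 71.2% and 61.5% against 83.3% and 81.2% (-15.9 points, adjusted p = 0.723). The calls of Zfp809 and Zfp568 were lost without iKO replicate 2 (adjusted p = 0.0940 and 0.136), that of Zfp459 without either iKO replicate (0.0915 and 0.153), and that of Zfp457 in 3 of the 4 fits that left out a library (0.0921 to 0.293).

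Cofactors of zinc finger repression and the enzymes that set or remove methylation were read from a list of 25 genes. Bodies of 14 of 25 were called lower and 0 higher, and all 25 lay below 0. Their median was -11.1 points. Over all bodies 23.6% were called lower, with a median of -8.33 points. With the replicate block 1 of the 25 bodies was called, against 1.41% of all bodies. limma on logit levels called 0, of these and of all bodies. The count fell when either iKO replicate or control replicate 2 was left out, and rose without control replicate 1. The share of all bodies called lower moved in the same directions. Of the first kb of these genes 0 of 25 were called, against 0.045% of all called lower. Among the cofactors, Setdb1 fell by 10.3 points (71.7% and 71.9% against 80.2% and 84.1%), and Trim28 differed by -7.74 points without being called (adjusted p = 0.240). Dnmt1, which maintains methylation, fell by 13.6 points and Uhrf1, which brings it to replicating DNA, by 14.9. The de novo enzyme Dnmt3a differed by -4.49 points (adjusted p = 0.196). Dnmt3b, Dnmt3l and Tet3 had adjusted p under 0.05 but differences under 10 points, so they were not called either. Tet1, Tet2 and Oga were called lower, with differences of -12.5, -11.1 and -11.1 points. Ogt itself differed by -9.29 points (52.0% and 57.8% against 62.3% and 66.1%, adjusted p = 0.0299), short of 10 points.

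The threshold of 3 neighbours did not mark a step in the values. The 22 members with exactly 3 neighbours had body differences of -24.0 to -4.10 points with a median of -8.68. The 42 measured of the 43 genes with 2 neighbours, which are not members, ranged from -20.7 to -1.12 points with a median of -9.18.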

How the data were processed

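Sorted mESC gave 4 bisulfite libraries, 2 iKO and 2 control. Per the submitters' processing notes, the authors used BSMAP, Picard and the build mm10. Versions, duplicate removal and read filters are not given in the sources used here. Per the file headers, the deposited columns are read counts per CpG (methylated, and all C or T), an expected count (C or T reads corrected by the opposite strand) and the methylation level as a fraction. Levels were computed from the counts. The fraction was not used, and the expected count only as an alternative depth.

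CpGs with at least 1 read in all 4 libraries were kept (16341360 of 20677079), and reads were pooled over 1 kb windows, gene bodies and gene ends with at least 3 CpGs. At 3.36 to 4.05 reads per CpG a single CpG carries little information. Gene positions, names and promoter sequences came from RefSeq GRCm38.p6, which gives no exons here. The 14 members without a promoter entry have no strand, and 4 pairs of members overlap.

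A quasi-binomial logistic model with group as its only term was fitted to all features in R 4.3.3. limma 3.58.1 moderated the dispersion, which was not allowed under 1, and p-values of its F tests were adjusted after Benjamini and Hochberg. A trend on log reads was added to the moderation after plain moderation recovered no change in the test on simulated data. All features of a kind except first kb then shared the trend value, so a feature with unequal replicates can be called on 1 library. The alternatives were edgeR 4.0.16 (quasi-likelihood) and limma on logits, with 0.5 added to both methylated and unmethylated reads. Two-sided exact permutation tests served for library means. Differences of group means are unweighted over libraries. Fits without 1 library leave its group a single one, whose spread is then taken from the opposite group.

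Named genes are the 10 largest decreases and 5 largest increases called among bodies and ends, the largest and smallest body difference of each cluster (20 or more CpGs), the 10 largest decreases among called windows, and a list of described genes. Others were chosen after their values were seen. The members and lists were chosen with earlier results of these data known. Other read and CpG minimums, depth limits, thinning, cluster distance, thresholds and tests were tried. Python 3.11.15, pandas 2.3.3 and NumPy 2.4.6 were used.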

Additional observations from a re-analysis of the deposited data

How the results depend on the processing

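The numbers of called features moved most with the choices made, while the mean over all member windows kept its sign under every setting. The count of member bodies called, 66, was 4 at 5 reads per CpG (2 of them among the 66), 9 with the replicate block, 0 with limma on logit levels and 6 when 10 points were counted from the median of all bodies, and 0 to 90 when a library was left out. edgeR called 66. For first kb the count was 0 except for 1 of 157 under the crossed pairing of replicate numbers, added after the data were seen. That pairing called 0.305% of all first kb lower. The 1 last kb was lost at 3 and 5 reads per CpG, with limma and with edgeR (0 each), and leaving out a library gave 0 to 1. The count of windows was 15 of 2560 in the main fit. At 3 reads it was 2 of 1220 (1 of them among the 15), against 0.0961% of all windows. At 5 reads it was 2 of 95 (0 among the 15), against 0.634%. The replicate block gave 2, against 0.0489%, and at least 5 CpGs gave 23 of 1958, against 0.361%. limma and edgeR called 0, for members and for all windows. At 3 and 5 reads fewer CpGs were tested. The cause of the other changes was not tested. Whether replicate numbers pair the samples is not stated in the labels. Differences between replicates correlated at -0.0472 between the groups over all bodies and at -0.153 over member bodies. Over member first kb, last kb and windows the values were 0.0307, 0.128 and 0.00745. They cannot show whether samples were handled in pairs, since counting error at this depth weakens such correlations. The crossed pairing gave 68 bodies and 18 windows, against 24.8% of all bodies and 0.249% of all windows.

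The mean difference of member windows kept its sign and fell between -11.4 and -7.32 points without a library, last minus first kb between -7.23 and -1.86, and the gap to other genes between -1.32 and -0.989. Last minus first kb could not be computed at 5 reads. All 20 clusters stayed below 0 under the other settings except at 5 reads per CpG (15 of 17 with windows), and all 17 clusters left with neighbours within 250 kb did. Of 809 values of named bodies and last kb under other settings, 11 turned sign. At 5 reads these were Zfp212 at 6.07 points, Zfp82 at 0.498, Zfp873 at 4.76 and Zfp458 at 0.570. At 3 reads they were Zfp467 at 1.52, Zfp579 at -12.6 and Zfp235 at -2.55. Leaving out a library put Zfp235 between -6.87 (without iKO replicate 1) and 7.78 points, Zfp689 between -3.57 (without iKO replicate 1) and 12.6, and Zfp947 between -4.81 and 3.14 (without control replicate 2), with 3.13 without iKO replicate 2.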

Other observations

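Across the 20 clusters, the control level was lower where listed CpGs were denser (Pearson's r = -0.930, Spearman's rho = -0.788), while CpG density and the difference between groups had r = 0.230 and rho = 0.00752. Reads per CpG and the difference had r = -0.586 and rho = -0.480, so clusters with more reads had larger losses. Reads per CpG ran from 3.18 to 5.08, and the most were in the Zfp141 to Zfp819 cluster, whose loss ranked second. Its part in the result was not tested. The clusters share their 4 libraries, and these values are descriptions.

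Over the 160 members, gene length and the body difference had r = 0.0318.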
